A study of Bos taurus with 6 samples.

Results

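Transcript levels in the testis of Angus bull calves were compared between 4 and 8 weeks of age. The comparison uses 2 Affymetrix bovine GeneChips per age, which are 4 of the 6 arrays of the series. Each array read total RNA of bulk testis tissue, with biotin as the label, from calves for which the labels name no treatment. The labels number the replicates of an age but do not say that they came from different calves, so a p-value reflects no more than how these samples scatter, and that scatter may be technical. The remaining arrays come from an earlier age, 2 weeks, and were left out because 1 of them stands apart and this step in age does not need them.

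A probe set is a group of short oligonucleotides on the array that reads 1 transcript, and its signal is a scaled fluorescence intensity. Of 24016 probe sets other than controls, 13292 carried 1 gene symbol, and 9203 of these had a mean signal above 30 over the 4 arrays. The other 4089 named probe sets lay at or below that level. Differences are given as the mean of log2(signal + 16) at 8 weeks minus that at 4 weeks, with its standard error (SE, n = 2 per age); a negative value means less signal at 8 weeks. On this scale the fold change of a dim probe set comes out too small. A signal at or under 28.1 is treated as background. That is the highest value of any Bacillus control probe set on the 4 arrays, found on 4wk replicate 2. Signals of different probe sets are not set against each other, because probes differ in response.

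In the weeks after birth the bovine testis holds solid seminiferous cords, in which Sertoli cells and immature germ cells lie inside a layer of peritubular cells. Between the cords lie steroid-producing Leydig cells, vessels and immune cells. Sertoli cells still divide at this stage, and the tight junctions that later close off the tubule lumen are not yet complete. Insulin-like growth factors, retinoic acid and steroids are among the signals through which these cells act on each other.

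The 4 arrays were alike in overall brightness, with median signals of 46.3 to 52.4. The share of probe sets with a signal under 16 was 26.0% and 25.3% at 4 weeks and 30.1% and 27.7% at 8 weeks. Over the probe sets tested, Pearson's r was 0.960 between the 4wk replicates and 0.973 between the 8wk replicates. It was 0.972 between 4wk replicate 1 and either 8wk array, close to that between the 8wk replicates. Between 4wk replicate 2 and the 8wk arrays it was 0.960 and 0.956. The array 4wk replicate 2 thus correlated less with each of the others than those did among themselves. Replicates differed with an SD of 0.39 at 4 weeks and 0.33 at 8 weeks over these probe sets, on the log2 scale.

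The tissue label was checked with testis products. AMH, the Sertoli cell hormone that makes the Müllerian ducts regress, had signals of 1966.2 and 2395.4 at 4 weeks and 2462.9 and 1941.7 at 8 weeks. INSL3, a Leydig cell hormone of testis descent, was bright on every array (6042.4 to 7566.9). STAR, which carries cholesterol into mitochondria, was at 3498.6 and 1679.4 and then 3033.6 and 3559.3. All 3 overlapped between the ages. In bulk tissue, fewer cells of a type and less RNA per cell cannot be told apart, here and in all values that follow.

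Markers of tissues that a dissection can bring along were mostly dim. No marker of epididymis and rete testis or of mesothelium reached the level of 30, with 3 and 4 of them on the array. Among fat markers, ADIPOQ stood at 3.7 to 8.9 and FABP4 at 0.6 to 16.9, while 8 of 16 fat list genes, such as the lipid enzymes LPL and FASN that other cells also use, were measured. Among skeletal muscle markers, 6 of 19 were measured. The fast myosin MYH1 was at 39.9 or less with each of its probe sets. The muscle creatine kinase CKM was at 790, 743.2, 737.7 and 802.1 over the 4 arrays and so did not separate the ages. Of the measured muscle genes, 1 was higher at 8 weeks without overlap and 2 were lower. MYH7 was higher, at 473.2 and 467.6 and then 532.2 and 540.6. TNNC1 was lower, at 51.4 and 93.6 and then 37.3 and 35.7, with a second probe set at -0.02. ENO3 was lower by a small margin (-0.10).

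Over 14578 probe sets, limma made 0 calls at an adjusted p under 0.05 (0%), with 0.3 as the lowest adjusted p. Without adjustment, 824 had a p under 0.05 (5.65%), of which 298 were higher at 8 weeks (2.04%) and 526 lower (3.61%). Leaving out any 1 array, which leaves 1 residual degree of freedom, gave 3 to 109 calls in limma. None of the genes named here therefore rose or fell by that test, and their values are given as measured differences.

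Replicate ranges gave a second view. Among named probe sets, 1498 had both 8wk signals above both 4wk signals, and 1648 had both below. Over all probe sets tested the same held for 16.3% and 18.4%. Such a gap between ages is thus common, and 6057 named probe sets overlapped. A gap together with a difference of at least 1 log2 unit was found for 12 named probe sets higher at 8 weeks and 29 lower, against 0.123% and 0.309% of all probe sets tested. Of the named probe sets, 387 passed the filter although their mean at one age was 30 or less. These had to differ to be kept when dim at 1 age, and 18 of them are among the probe sets at least 1 log2 unit apart. The genes PTI, PEX6, LOC100300510, RASD1, GPR162, HBG, APLN and CRABP1, named below, are among the 387. So is a further probe set of each of ZBTB44, EGR1, IGFALS, PDK4, LAT and TSPY.

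Each gene is described below by its brightest probe set, and 1700 of the 7036 genes had more than 1 named probe set above the filter. With that probe set, 16.9% of genes were higher at 8 weeks without overlap and 17.3% lower, and counts in gene lists below are to be read against these shares. At least 1 log2 unit separated 7 higher genes (0.0995%) and 17 lower genes (0.242%). The last probe sets inside the limit of 1 log2 unit were S100B at 1.004 and the second probe set of IGFBP3 at -1.002. Just outside it lay MAFF at -0.996 and DERL3 at -0.986. The median difference over all genes was close to 0.

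**Figure D1:**
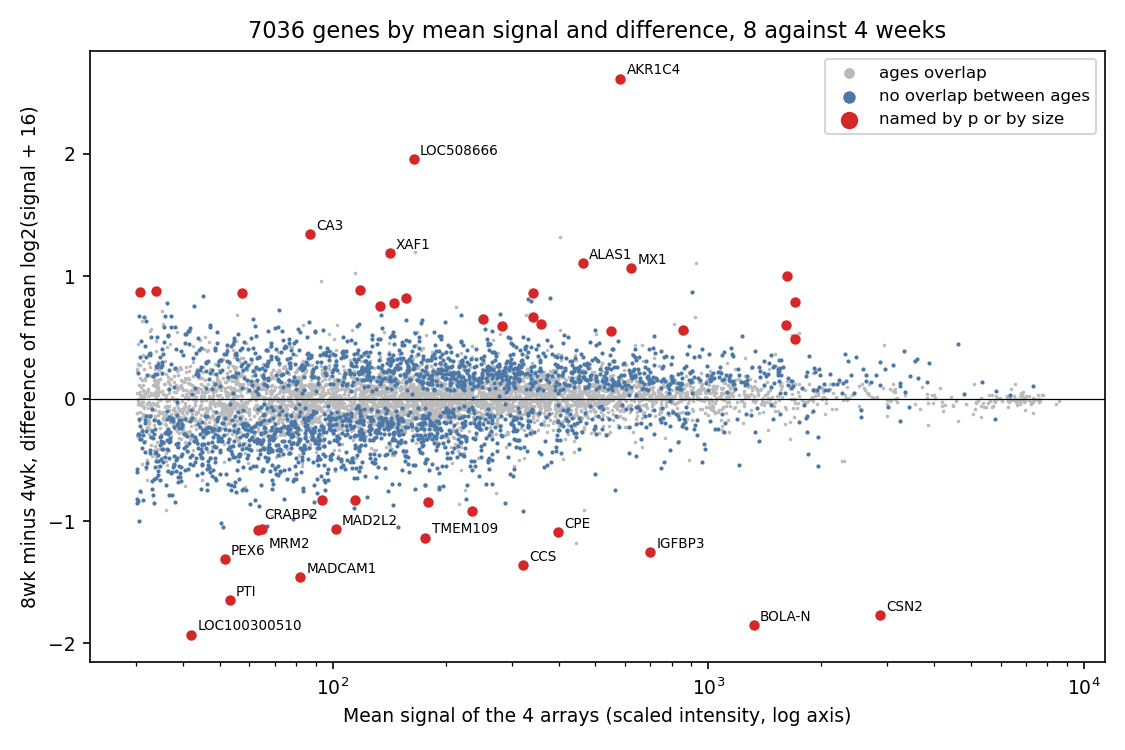
Difference between 8 and 4 weeks (mean log2(signal + 16), vertical axis) against mean signal of the 4 arrays (log axis) for 7036 genes. Blue points are genes whose ages do not overlap, grey points those that overlap, and red points the 41 genes named by smallest p or largest difference. Differences of over 1 log2 unit are few in both directions, and the points narrow around 0 at high signal.

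The insulin-like growth factor system held some of the clearest differences, lower at 8 weeks. IGFBP3, the main carrier of insulin-like growth factors in serum and an extracellular binding protein in tissues, was at 795.8 and 1201.2 at 4 weeks and at 407.6 and 395.9 at 8 weeks. Both 8wk arrays lay at about the same level, well under the dimmer 4wk array. The difference was -1.25 ± 0.19 (adjusted p = 0.316 in limma). A second IGFBP3 probe set read 507 and 888.2 against 326.2 and 328.3, a difference of -1.002.

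IGF2, the growth factor of fetal tissues that is expressed from the paternal allele, was at 2295.2 and 2344.9 at 4 weeks. At 8 weeks its signals were 1783.7 and 1405.7, again without overlap, and the difference was -0.55 ± 0.14 (adjusted p = 0.817 in limma). Its second probe set showed the same order with a larger gap, 1528.8 and 2289.9 against 948.9 and 781.3 (-1.11). IGF2R, the receptor that clears IGF2, was at 968.4 and 1013.4 and then 897 and 857.7, a small gap (-0.17).

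Other parts of the system differed in direction. IGFBP2, another binding protein, was at 57.2 and 70.8 and then 32 and 40.3. IGFALS, the acid-labile subunit that stabilises the circulating complex of IGFBP3, was at 71.8 and 44.9 and then 40.7 and 28.3. Its second probe set was at 34.5 and 79.7 and then 27.5 and 5.4, inside the background at 8 weeks, and so at least 1.87-fold lower. That probe set passed the filter only through the 4wk arrays. IGF1, the main growth factor of postnatal life, was the member higher at 8 weeks without overlap, at 34.2 and 26.2 and then 47.1 and 56.7 (0.56), with 4wk replicate 2 inside the background. The binding proteins IGFBP4, IGFBP6 and IGFBP7 and the insulin receptor INSR overlapped between ages. Of 11 measured members, 1 was higher and 5 were lower without overlap, against 16.9% and 17.3% of all genes. The list median was -0.16, and between -0.28 and -0.14 with any 1 array left out. None passed the adjusted threshold.

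Genes of retinoid handling differed in direction between members. CRABP2, which hands retinoic acid to its nuclear receptors, was at 82 and 100.4 at 4 weeks and 33.6 and 36.2 at 8 weeks. Replicates of each age were close, and the gap between ages was wider than either replicate gap (-1.07 ± 0.22, adjusted p = 0.647 in limma). RDH10, the enzyme that turns retinol into retinal, was at 263.4 and 488.9 and then 251.3 and 145.5. Here 4wk replicate 1 and 8wk replicate 1 almost met, but a second probe set was clearer, at 264.6 and 296.5 against 175 and 139.4 (-0.78).

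RBP4, the plasma carrier of retinol, was at 113.5 and 258.5 and then 93.6 and 108.1. The retinol uptake receptor STRA6 overlapped, at 197.4 and 370 and then 229.8 and 103.3. Among receptors for retinoic acid and their partners, RARA was at 212.5 and 196.9 and then 165.6 and 175.9, and RXRB at 68.2 and 126.4 and then 67.9 and 65.8. Both were lower without overlap by small margins, while RXRA overlapped. ALDH1A1, which makes retinoic acid from retinal, went the other way, from 3167.7 and 4756.7 to 5378.8 and 5233.4 (0.45). The second binding protein, CRABP1, was dim, at 37.2 and 17.4 and then 38.2 and 37.5. In all, 2 of 10 members were higher, 5 were lower without overlap and 3 overlapped, against 16.9% higher and 17.3% lower among all genes, and 0 passed. The list median was -0.32, and between -0.55 and -0.22 with any 1 array left out.

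**Figure D2:**
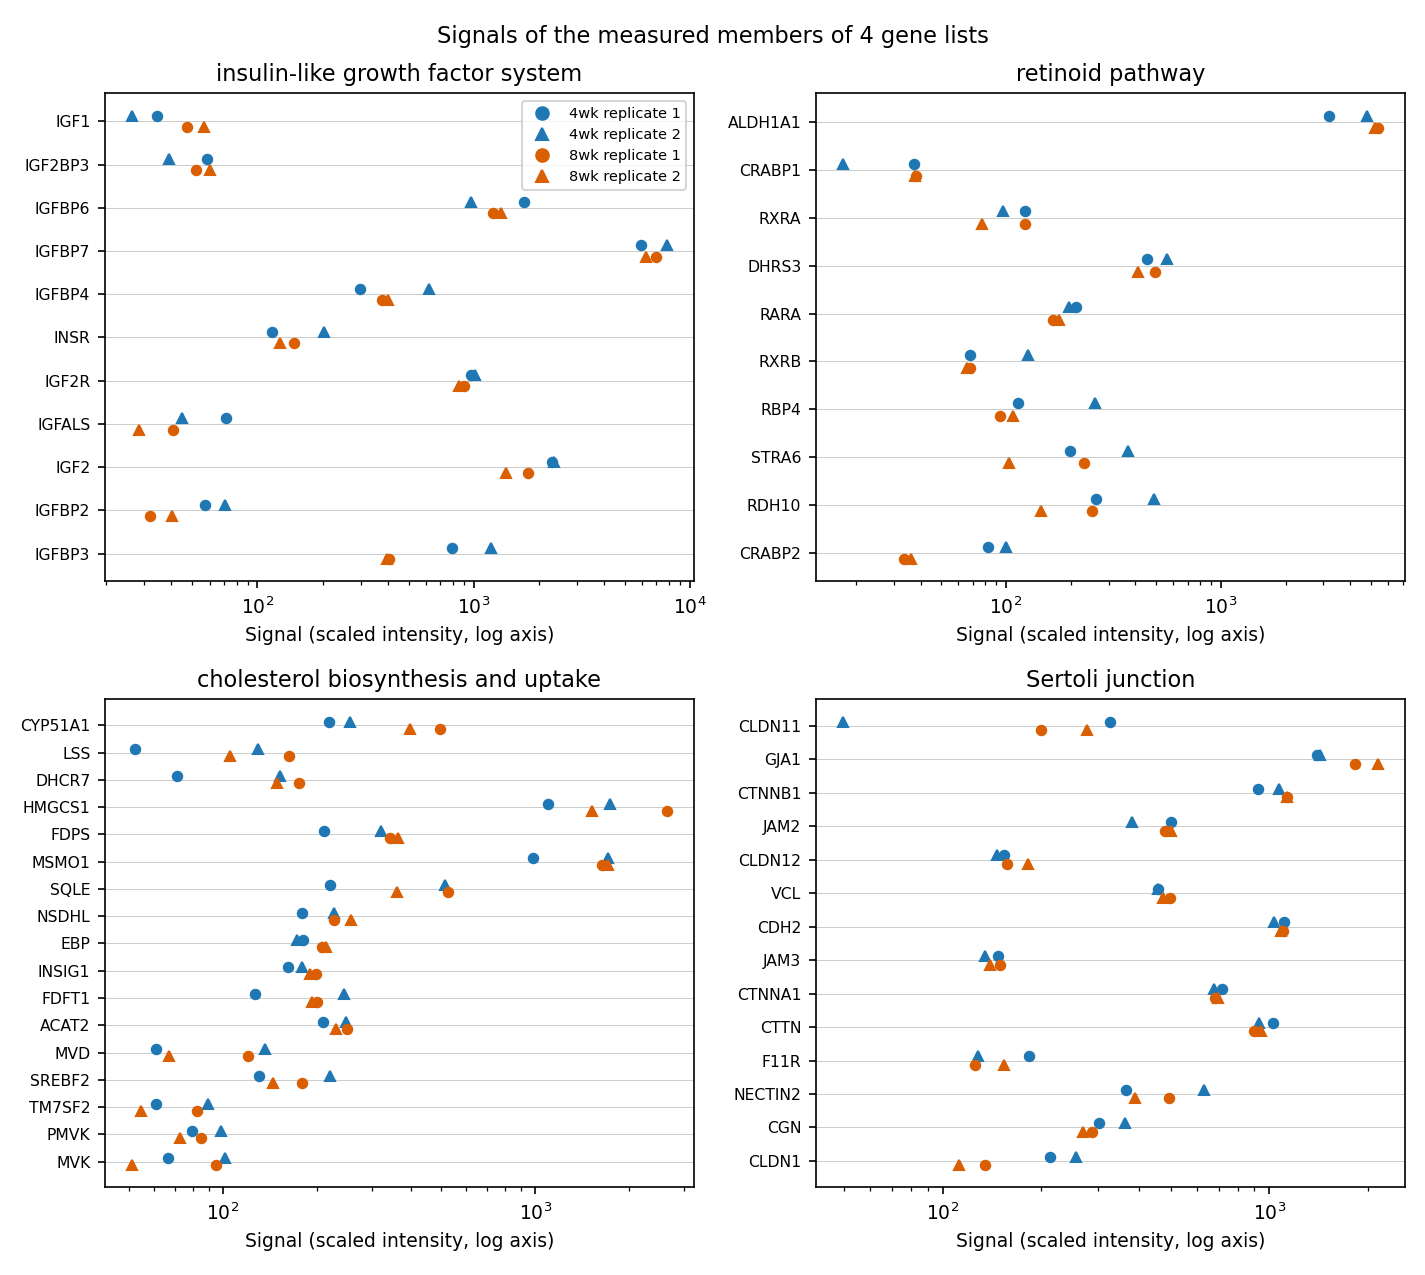
Signals (log axis) of every measured member of 4 gene lists, with 4wk arrays in blue and 8wk arrays in orange, circles for replicate 1 and triangles for replicate 2. IGFBP3, IGF2 and CRABP2 have both 8wk points to the left of both 4wk points, CYP51A1 and GJA1 have them to the right, and most cholesterol genes have their lowest or nearly lowest point in 4wk replicate 1.

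Cholesterol synthesis supplies the substrate of Leydig cell steroids. CYP51A1, the lanosterol demethylase of that pathway, was at 218.2 and 255.3 at 4 weeks and 493.5 and 396.5 at 8 weeks. Both 8wk arrays lay well above both 4wk arrays (0.86 ± 0.17, adjusted p = 0.617 in limma). FDPS, which makes farnesyl diphosphate, was at 209.8 and 319.6 and then 341.3 and 362.9. The sterol isomerase EBP and the feedback protein INSIG1 were higher by 0.23 and 0.18.

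The rest of the pathway was less clear. HMGCS1, an early enzyme, was at 1094.3 and 1727.7 and then 2634.7 and 1519.6, so 8wk replicate 2 lay below 4wk replicate 2. DHCR7, the last enzyme, was at 71.3 and 152.6 and then 174.5 and 148.3, and the lanosterol synthase LSS at 52.3 and 129.6 and then 162.8 and 105.2. In each of these the low value was that of 4wk replicate 1. Of 17 members, 4 were higher and 0 lower without overlap (23.5% and 0%, against 16.9% and 17.3% of all genes), with a median of 0.23. Relative to each gene's mean, the list median was -0.48 in 4wk replicate 1, 0.21 in 4wk replicate 2, and 0.17 and 0.00 at 8 weeks. Leaving out 4wk replicate 1, the list median was -0.03, and without 4wk replicate 2 it was 0.46.

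Leydig cell genes as a list were level, with 3 of 15 higher and 2 lower without overlap and a median of -0.01. FDX1, the ferredoxin that passes electrons to steroidogenic enzymes, was at 752 and 655 and then 838.6 and 946.7 (0.34). NR5A1, the steroidogenic nuclear receptor, was at 374 and 452.4 and then 334.2 and 308.9 (-0.34), and its other probe sets gave -0.22 and -0.60. HSD3B1, the dehydrogenase that completes active steroids, was slightly lower (-0.30). CYP11A1, which starts steroid synthesis, and CYP17A1, which leads to androgens, overlapped between ages with differences of -0.10 and -0.01.

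AKR1C4, an aldo-keto reductase of steroids, had the highest difference of any named gene, 2.62 ± 0.91 (adjusted p = 0.845 in limma), but it rested on 1 array. Its signals were 530.9 and 22.4 at 4 weeks and 715.7 and 1063.1 at 8 weeks. That second 4wk value lay inside the background while the first stood near the 8wk values. Without 4wk replicate 2 the difference was 0.70. Its other probe set gave -0.81, and reads of near-identical members of this gene family cannot be told apart on the array.

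Sertoli cell genes had a median of -0.01, with 3 of 12 higher and 3 lower without overlap. TF, the transferrin that brings iron to germ cells, was at 407 and 399 and then 630.5 and 502.1 (0.47). FATE1, a testis-expressed gene, was at 1020.3 and 884.4 and then 1139.4 and 1361.2 (0.39). GATA4, a transcription factor of Sertoli and Leydig cells, was at 746.5 and 1058.3 and then 740.1 and 511.4 (-0.52), although 4wk replicate 1 and 8wk replicate 1 nearly coincided. The inhibin subunits differed little, with INHBA lower by a small margin (-0.17) and INHA overlapping (-0.02). The FSH receptor FSHR overlapped as well, at 153.8 and 185.6 and then 161.6 and 115.6.

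Cell junction genes contained a pair with opposite order. GJA1, the gap junction protein connexin 43 that couples Sertoli cells, was at 1404.5 and 1428.8 and then 1836.5 and 2152.6. The 4wk replicates were almost equal, and both 8wk arrays lay above them (0.48 ± 0.13, adjusted p = 0.841 in limma). CLDN1, a tight junction claudin, was at 212.9 and 256.5 and then 135.3 and 112 (-0.84 ± 0.18, adjusted p = 0.702 in limma). A second CLDN1 probe set was lower too (-0.45).

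CLDN11, the main claudin of the Sertoli cell barrier, could not be placed. It was at 325.8 and 49.5 at 4 weeks and 199.7 and 276.1 at 8 weeks, so the 4wk replicates were farther apart than the ages, and its other probe set gave -0.17. The adherens junction genes CTNNB1 (0.18) and VCL (0.09) were higher by small margins, and CGN, the cingulin of tight junctions, was lower (-0.24). Of 14 junction genes, 4 were higher and 2 lower without overlap, with a median of 0.03.

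**Figure D3:**
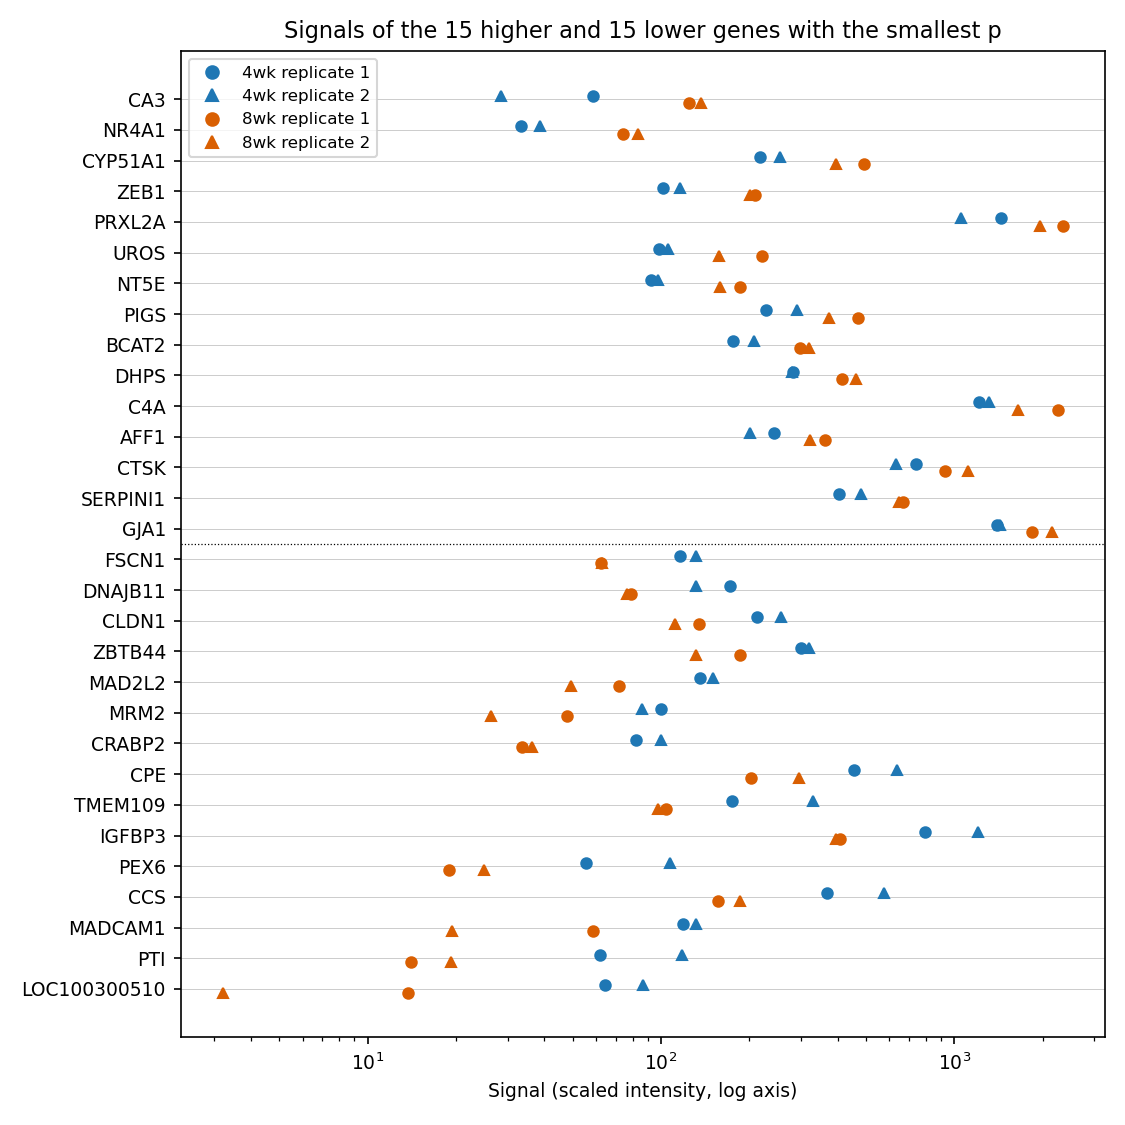
Signals (log axis) on each of the 4 arrays for the 15 genes higher (above the dotted line) and the 15 lower at 8 weeks that had the smallest p among genes without overlap. Blue marks 4 weeks, orange 8 weeks, circles replicate 1 and triangles replicate 2. In every row the 2 colours are separate by the way the genes were chosen, and the widest separations are in the dim genes PTI and LOC100300510 at the bottom.

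Among the other genes lower at 8 weeks, CCS was measured well above background. CCS, the chaperone that loads copper into superoxide dismutase, was at 368.2 and 576.5 and then 156.3 and 185.5 (-1.36 ± 0.22, adjusted p = 0.316 in limma). CPE, a carboxypeptidase that trims prohormones, was at 456.5 and 636.7 and then 202.5 and 295.2 (-1.09 ± 0.22, adjusted p = 0.617 in limma). In both genes the highest 8wk value was far under the lowest 4wk value. TMEM109, a membrane protein, was at 174.3 and 329.7 and then 104 and 97.7 (-1.13, and -0.70 without 4wk replicate 2).

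Dim genes can be given only as bounds. PTI, which inhibits trypsin, had signals of 61.8 and 117.7 at 4 weeks, and both 8wk signals, 14 and 19.3, lay inside the background. It was at least 3.04-fold lower at 8 weeks (adjusted p = 0.468 in limma). PEX6, an ATPase of peroxisome assembly, was at 55.4 and 107 and then 18.9 and 24.9, at least 2.74-fold lower (adjusted p = 0.77 in limma). Its other probe set lay inside the background at both ages, at 11.3 and 10.5 and then 13.6 and 26.5. LOC100300510, a gene known only by a locus number, was at 64.3 and 86.8 and then 13.7 and 3.2, at least 2.66-fold lower (adjusted p = 0.316 in limma). That bound rests on 1 probe set. The others of this symbol had mean signals of 1.025 to 23.4, and the brightest of them read 18.8 and 24.1 and then 29.1 and 21.6. These bounds set the 4wk mean against 28.1 on the scale of log2 signal. PTI, PEX6 and LOC100300510 had 8wk means of 16.65, 21.9 and 8.45, so they passed the filter of 30 only through the 4wk arrays. Being dim at 8 weeks, they had to differ between the ages to be kept.

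ZBTB44, a zinc finger gene, was lower with both of its probe sets. The brighter read 300.9 and 320.1 and then 185.6 and 131.9 (-0.92), and the dimmer 88.1 and 116.7 and then 29 and 23.1 (-1.49). The dimmer passed the filter only through the 4wk arrays, so it had to differ to be kept. FSCN1, which bundles actin filaments, was at 116.4 and 131.8 and then 62.7 and 63.1 (-0.83). DNAJB11, a chaperone of the endoplasmic reticulum, was at 172 and 131.2 and then 79 and 76.4 (-0.83). Each of these had tight 8wk replicates below both 4wk values, apart from ZBTB44, whose 8wk replicates differed more. MAD2L2, a subunit of a DNA repair polymerase, gave -1.06 with one probe set and 0.03 with the other, and MRM2, a methyltransferase of mitochondrial ribosomal RNA, gave -1.06.

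CSN2 and BOLA-N were bright genes lower by over 1 log2 unit, and both had wide replicates. The probe set assigned to CSN2, the milk protein beta-casein, was at 3238.1 and 5115.8 and then 538.9 and 2586.9 (-1.77 ± 0.55, adjusted p = 0.841 in limma). Its 8wk replicates were farther apart than the ages were, and without 8wk replicate 1 the difference was -0.65. The other CSN2 probe sets read 1.1 to 21 and 1.3 to 9.2 over the 4 arrays, so they show no CSN2 transcript above background, and the bright one is of a class (x_at) whose oligonucleotides can match other transcripts. BOLA-N, a class I histocompatibility gene with many near-identical copies, was at 906.1 and 3316.2 and then 776.8 and 283.1 (-1.85 ± 0.56, adjusted p = 0.841 in limma). Without 4wk replicate 2 its difference was -0.92, and without 8wk replicate 2 it was -1.14.

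ZEB1, PRXL2A and NT5E were higher at 8 weeks by modest amounts, with close replicates in ZEB1 and NT5E. ZEB1, a transcriptional repressor of epithelial genes, was at 101.8 and 115.8 and then 209.1 and 200.9 (0.83 ± 0.17, adjusted p = 0.647 in limma). PRXL2A, a thioredoxin-like redox protein, was at 1447.7 and 1051.9 and then 2344.2 and 1963.6 (0.79 ± 0.17, adjusted p = 0.702 in limma). Its difference was 1.02 without 4wk replicate 1 and 0.56 without 4wk replicate 2. NT5E, the ectoenzyme that makes extracellular adenosine, was at 92.5 and 97.7 and then 186 and 159.1 (0.76). All had both 8wk arrays above both 4wk arrays, but a second NT5E probe set gave 0.04.

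CA3, the cytosolic carbonic anhydrase III, was at 58.6 and 28.5 at 4 weeks and at 124.4 and 137.1 at 8 weeks. The ages did not overlap, and the 8wk replicates were close (1.35 ± 0.26, adjusted p = 0.617 in limma). UROS, an enzyme of haem synthesis, was at 98.4 and 105.8 and then 221.5 and 157.8 (0.78). ALAS1, the rate-limiting enzyme of the same pathway, was at 515.7 and 136.5 and then 574 and 625.5. For ALAS1, 4wk replicate 1 was near the 8wk values and 4wk replicate 2 far below them, and without 4wk replicate 2 the difference went from 1.11 to 0.21.

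Several of the higher genes differed less, with ages apart by the way they were chosen. BCAT2, the mitochondrial aminotransferase of branched-chain amino acids, was at 176.3 and 207.8 and then 298.3 and 320.5 (0.65). DHPS, which makes the hypusine of a translation factor, was at 282.8 and 279.1 and then 413.3 and 462 (0.61). CTSK, a collagen-degrading protease, was at 743 and 632.2 and then 932 and 1110.7 (0.56). These gaps between ages were wider than the gaps between replicates.

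PIGS, a subunit of the complex that attaches lipid anchors to proteins, was higher with both probe sets (0.67 and 0.47), as was AFF1, a transcription elongation gene (0.59 and 0.42). C4A, the complement component, gave 0.61, and its gene copies cannot be told apart. SERPINI1, the protease inhibitor neuroserpin, gave 0.56. Of the 41 genes named by p or by size, 10 had another probe set above the filter, 11 in all. Of these other probe sets 9 had the same sign and 6 were without overlap in the same direction.

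S100B and PDK4 were among the higher genes by size but had wide replicates. S100B, a calcium-binding protein, was at 1595.8 and 667.9 and then 2310 and 1891.2. Its difference of 1.004 became 0.39 without 4wk replicate 2. PDK4, a kinase that holds back pyruvate oxidation, was at 87.9 and 60.7 and then 95 and 228.8 (0.88, and 0.31 without 8wk replicate 2), and its other probe sets gave 1.11 and 0.58. LOC508666 was at 40.1 and 25.7 and then 544.2 and 47.3, so its difference of 1.96 came mostly from 8wk replicate 1 and was 0.39 without it. RASD1 and GPR162 were dim, with 4wk replicate 2 at 5.4 and 8.3.

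Of 15 endothelial genes, 9 overlapped between ages, 6 were lower and 0 higher without overlap, against 17.3% and 16.9% of all genes, with a median of -0.22. ENG, a TGF-beta co-receptor of vessels, was at 100.6 and 133.2 and then 83.2 and 92.5. CD34, a vascular and progenitor surface protein, was at 76.3 and 91.5 and then 64 and 61.1. Most members were this dim, and none had an unadjusted p under 0.05 in limma. Dim probe sets were more often lower than higher, so the shares of all genes are only a rough measure for this list. With a mean above 100 the list median was -0.19. The summed signal of the list was 1492.2 and 1457.3 at 4 weeks and 1220.4 and 1304.9 at 8 weeks.

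Of 25 leukocyte genes, 16 overlapped, 9 were lower and 0 higher without overlap, against 17.3% and 16.9% of all genes, with a median of -0.21. NKG7, a granule protein of cytotoxic lymphocytes, was at 167.5 and 135.6 and then 99.7 and 84 (-0.63). CD3D, a chain of the T cell receptor complex, was at 142.2 and 138.3 and then 93.3 and 86.2 (-0.56). PTPRC, the pan-leukocyte antigen CD45, was at 447.6 and 374.4 and then 288.5 and 309.6 (-0.43). In NKG7, CD3D and PTPRC the 8wk replicates lay together under the 4wk replicates.

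Some members of the list overlapped between ages. The complement genes C1QA, C1QB and C1QC overlapped, with differences of -0.04, -0.06 and -0.14, and so did CD68 (0.09). The actin regulator CORO1A (-0.53) and the receptor adaptor TYROBP (-0.45) were lower without overlap. The summed signal of the leukocyte list was 5154.1 and 4837.1 at 4 weeks and 4586.5 and 3895.4 at 8 weeks, and its median stayed between -0.29 and -0.15 when any 1 array was left out. MADCAM1, an adhesion molecule for homing lymphocytes that was not on the list, was at 118.8 and 131.2 and then 58.6 and 19.4 (-1.45 ± 0.32, adjusted p = 0.747 in limma), and its second probe set gave -0.43. Without 8wk replicate 2 its difference was -0.92. Which cells the MADCAM1 signal came from was not tested. None of the members of either list passed.

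Interferon-stimulated genes separated 1 array from the other 3. ISG15, a ubiquitin-like protein induced by interferon, was at 187.5 and 144.9 at 4 weeks and at 1109.9 and 165.8 at 8 weeks. MX1, an antiviral GTPase, was at 332.8 and 362.7 and then 1404 and 393.6. XAF1, an interferon-induced promoter of cell death, was at 88.7 and 62.6 and then 294.8 and 121.2 (1.19 ± 0.34, adjusted p = 0.841 in limma). In each of them 8wk replicate 1 stood far above the rest, and without it the differences of MX1 and XAF1 were 0.17 and 0.60.

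Of 26 genes in this list, 6 were higher and 1 lower without overlap, with a median of 0.31. That median was -0.02 without 8wk replicate 1 and 0.71 without 8wk replicate 2. The summed signal was 5852.4 and 5861.9 at 4 weeks and 10996.2 and 5763.1 at 8 weeks, so 8wk replicate 2 lay just below the 4wk arrays. PSMB8, an immunoproteasome gene, was the member lower without overlap, at 691.8 and 805.6 and then 500.1 and 572.7.

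Of 7 class II histocompatibility genes, 1 was higher and 2 were lower without overlap, 4 overlapped, and the median was -0.01. A pair of the overlapping genes split the arrays by replicate number. BOLA-DQA2 was at 11.6 and 478.1 at 4 weeks and at 8.7 and 455.1 at 8 weeks, and BOLA-DQA1 at 19.8 and 94.8 and then 19.2 and 94.4. Replicate 2 was the bright one at both ages in this pair. BOLA-DRA, the alpha chain of the DR class II molecule, did not follow that order, at 866.3 and 591.6 and then 653 and 910.6. BOLA-DMB, which loads peptide onto class II molecules together with its partner, was at 165.2 and 103 and then 220.9 and 198.4 (0.62), while the partner BOLA-DMA was lower (-0.33).

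**Figure D4:**
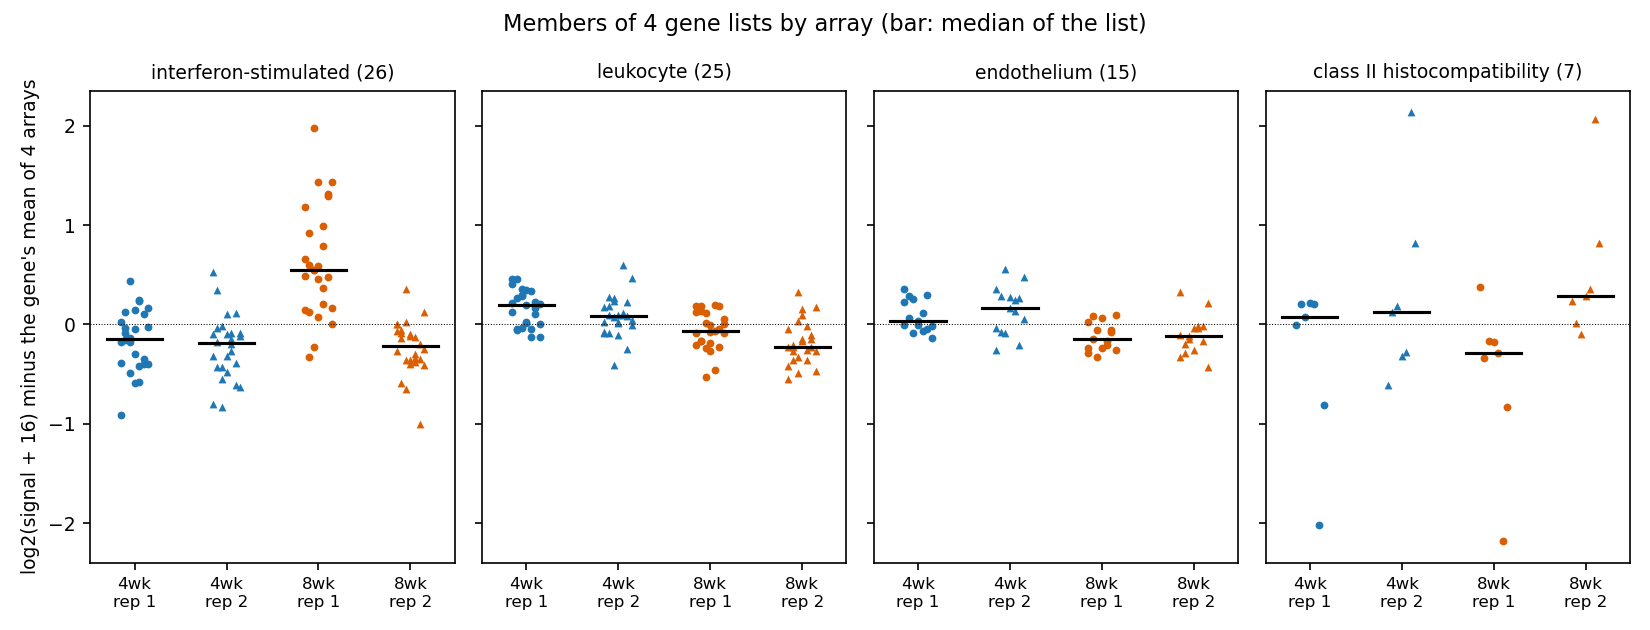
For each of 4 gene lists, every measured member's log2(signal + 16) minus its mean of the 4 arrays, by array, with a bar at the list median. Interferon-stimulated genes stand up in 8wk replicate 1, the medians of the leukocyte and endothelial lists are a little lower on both 8wk arrays, and 2 class II genes are low in replicate 1 and high in replicate 2 of both ages.

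Matrix genes had members in both directions, 8 of 40 higher and 7 lower without overlap, with a median of -0.01. Among the lower ones, MFAP2, a protein of elastic microfibrils, was at 469.3 and 406 and then 279.7 and 304.8 (-0.56). The small proteoglycan BGN was at 177.2 and 298.4 and then 95.2 and 156.4 (-0.83), with a second probe set at -0.40. HSPG2, the basement membrane proteoglycan perlecan, and LAMB2, a laminin chain, gave -0.65 and -0.57, and -0.31 and -0.27 without 4wk replicate 2.

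Other members of the matrix list that lie in basement membranes were either higher or overlapped. COL15A1 was at 1273.2 and 1234.9 and then 1521.4 and 1586.5 (0.31), with its second probe set at 0.32. COL18A1 was at 236.1 and 240.2 and then 317.7 and 296.8 (0.35). The laminin chains LAMB1 and LAMC1 were higher by 0.17 and 0.23 and the linker NID1 by 0.21, though 1 of the 4 other LAMC1 probe sets gave -0.20. The collagen chain COL4A1 (-0.14), the linker NID2 (-0.10) and the laminin chain LAMA4 (0.24) overlapped. The fibrillar collagens COL1A1, COL1A2 and COL3A1 overlapped.

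Peritubular and smooth muscle genes had a median of -0.07, with 2 of 15 higher and 5 lower without overlap. CSRP1, a LIM protein of smooth muscle, was at 148.8 and 175.7 and then 94.8 and 101.4 (-0.64). MYH11, the smooth muscle myosin, was at 89.1 and 81.7 and then 121.4 and 108.4 (0.37). ACTA2, smooth muscle actin, overlapped.

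Germ cell genes gave little separation. KIT, the receptor of differentiating germ cells that Leydig cells also carry, was at 254.2 and 291 and then 291.3 and 321, and its other probe sets gave 0.22 and 0.32. The spermatogonial factor ZBTB16 overlapped (0.07), and UCHL1, found in gonocytes, was at 658.6 and 493.7 and then 510.6 and 893.6. Of 9 measured genes of gonocytes and spermatogonia, 2 were higher and 0 lower without overlap. Of the meiosis genes, 4 of 5 on the array were measured, among them HSPA2, a chaperone of spermatocytes that other cells express too, at 144.1 and 124.6 and then 166.4 and 178.8. Of the spermatid genes, 1 of 10 was measured, and the protamine PRM1 (9.7 to 16.1) and the transition protein TNP1 (6 to 18.4) lay inside the background at both ages.

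Cell cycle genes centred on 0.01, with 4 of 45 higher and 7 lower without overlap. TPX2, a spindle assembly factor, was at 165 and 132.1 and then 194.6 and 254.3 (0.54), while its second probe set gave 0.06. CDK1, the mitotic kinase, was at 89.5 and 89.3 and then 105.2 and 162.5 (0.48). UHRF1, which maintains DNA methylation at replication, was at 82.9 and 101.1 and then 58.7 and 53.1 (-0.58). The replication clamp PCNA and the helicase subunits MCM3 to MCM7 overlapped, with differences of -0.16 to 0.05.

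Immediate early genes, known for fast and brief responses to stimuli, went both ways, 7 of 24 higher and 5 lower in a list that also holds heat shock genes. EGR1, a zinc finger factor that answers growth signals, was at 234.7 and 189.3 and then 126.9 and 112.8 (-0.74 ± 0.18, adjusted p = 0.814 in limma). Its second probe set was at 70.4 and 83.5 and then 19.5 and 22.4, inside the background at 8 weeks, and so at least 2.73-fold lower. IER2 was lower with both probe sets (-0.64 and -0.33). NR4A1, an orphan nuclear receptor that also acts in steroidogenic cells, was higher, from 33.2 and 38.8 to 74 and 83.3 (0.86 ± 0.22, adjusted p = 0.815 in limma). DUSP1, a phosphatase of stress kinases, went from 113 and 116 to 168.4 and 181 (0.55).

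Other growth control lists had members in both directions. Of 15 imprinted genes 2 were higher and 5 lower without overlap, with a median of -0.03, and MEG3, an imprinted non-coding RNA, was lower on average with all 5 of its probe sets (-0.08 to -0.38). DLK1, an imprinted ligand of the Notch pathway, was at 153.8 and 158.6 and then 111.1 and 141.2. Of 16 TGF-beta family genes 4 were higher and 6 lower, with a median of -0.13. Its inhibitors FSTL3 and FST were lower (-0.57 and -0.41), and SMAD4, the shared signal transducer, was higher (495.1 and 356.6, then 507.5 and 651.8). The Wnt modulator DKK3 was at 3122.8 and 3222.1 and then 4527.7 and 3501.7 (0.33). Of 10 hormone receptor genes 1 was lower and 0 higher without overlap, and their median of -0.15 was close to that of the insulin-like growth factor list.

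Antioxidant genes had 10 of 31 higher and 1 lower without overlap, against 16.9% and 17.3% of all genes, with a median of 0.10. GSTA4, a glutathione transferase for lipid peroxidation products, was at 1038.2 and 928.7 and then 1275 and 1355.8 (0.42). GSTO1 gave 0.35, PRDX1 0.24 and catalase (CAT) 0.19. The list median was -0.01 without 4wk replicate 1. Extracellular superoxide dismutase SOD3 was at 253.8 and 1057.9 and then 335.8 and 217.2, so the dim 4wk array lay between the 8wk arrays. Its difference was -0.91, and 0.086 without the bright array, 4wk replicate 2.

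Of 79 oxidative phosphorylation genes, which serve respiration, 15 were higher and 6 lower without overlap, against 16.9% and 17.3% of all genes, with a median of 0.03. ATP5F1E, the epsilon subunit of ATP synthase, was at 1359.8 and 1383.7 and then 1663.7 and 1761.5 (0.32). UQCRFS1, the Rieske iron-sulfur protein of complex III, was lower (-0.29). Of 63 cytosolic ribosomal protein genes 2 were higher, 3 lower and 58 overlapped, with a median of -0.01.

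**Figure D5:**
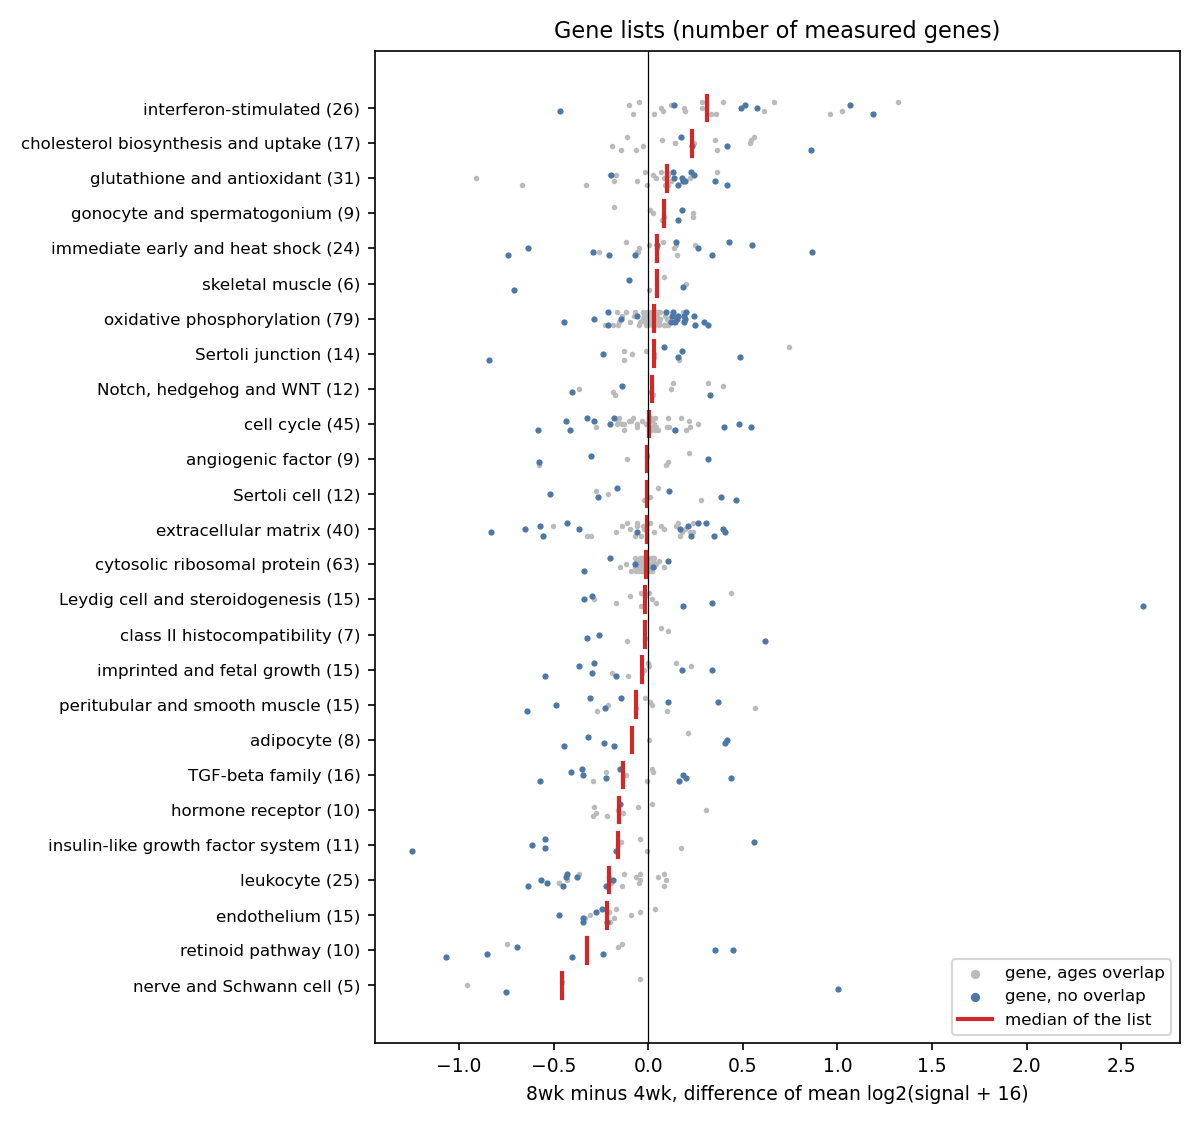
Difference between 8 and 4 weeks for every measured member of the 26 gene lists with at least 5 measured genes, ordered by list median (red bar), with the number of genes in brackets. Blue points are genes without overlap between ages and grey points those that overlap. Interferon-stimulated genes have the highest median and the 5 nerve genes the lowest, both of which depend on single arrays, and ribosomal protein genes lie close to 0.

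The smallest lists say least. Among 5 nerve and Schwann cell genes the median was -0.46, but -0.04 without 4wk replicate 2 and -0.12 without 8wk replicate 2. The neurotrophin receptor NGFR was at 135.4 and 229.2 and then 100.3 and 96.7 and S100B, described above, was higher. Of 2 erythroid genes, the fetal globin HBG was at 46 and 39.4 and then 22 and 15.6, inside the background at 8 weeks, and HBB overlapped. Of 9 angiogenic genes, VEGFA was higher (112.4 and 142.4, then 157.8 and 165.5) and EFNA1 and the dim APLN were lower. Of 12 Notch, hedgehog and WNT genes 1 was higher and 2 were lower. For every list named here, 0 members had an adjusted p under 0.05 in limma.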

How the data were processed

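Signals of 6 Affymetrix bovine arrays, 2 per age, were deposited as linear intensity values per probe set, read with GCOS 1.4.0.036 per the submitters' processing notes. Summarisation, detection calls, genome build and the extraction of these 4 samples were not given in the sources used here. A common scaling is visible in the deposited intensity values, with trimmed means of 125.025 to 125.03 (2% of values left out at each end). From them, log2(signal + 16) of the 4wk and 8wk arrays was fitted with limma 3.58.1 in R 4.3.3 (lmFit, eBayes with trend, 2 residual and 7.28 prior degrees of freedom). The 112 controls were left out, and 14578 probe sets with a mean above 30 were tested, with Benjamini-Hochberg adjustment over all of them. The fit was also run on simulated data with normal scatter and differences added only to brighter probe sets. That run does not show how the fit performs on these arrays.

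Symbols came from the platform annotation: 13263 of the 13292 named probe sets matched the ARS-UCD2.0 gene table by identifier, 86 probe sets had several symbols and 10638 none. Each gene was represented by its brightest probe set. Genes without overlap were named by smallest p (15 per direction) or largest difference (10 per direction), with up to 4 members per gene list by p and the label checks. In the report, further list members, second probe sets and dim markers were named after their values were seen. The genes and the 31 lists were chosen with earlier results of these data known. The number of arrays limits the precision.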

Additional observations from a re-analysis of the deposited data

How the results depend on the processing

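With 2 arrays per age and 2 residual degrees of freedom, these data could show only large differences, and dim probe sets are close to background. The count past the adjusted threshold was 0 in limma with either other pseudocount, with and without filters, with quantile normalization, with all 6 arrays and without the trend. It was 36 with the replicate number as a block, which leaves 1 residual degree of freedom. Replicate differences at 4 and 8 weeks correlated at -0.05 over probe sets, which cannot decide whether the numbers pair samples across ages. At both ages, 3 class II probe sets had replicates more than 2 log2 units apart in the same direction. The labels state no pairing, so none was used for the count in the main fit. With 1 array left out it was 109 without 4wk replicate 1, 3 without 4wk replicate 2, 5 without 8wk replicate 1 and 19 without 8wk replicate 2, where the lone array is assumed to vary like the other age. At an unadjusted p under 0.05 in limma, 466 were higher and 991 lower of 24016 probe sets without a filter. In the main fit they were 298 and 526 of 14578, and with all 6 arrays 94 and 269 of 14578. With a mean above 100, 215 of 8211 were higher and 227 lower. Leaving out 1 array gave 196 to 787 higher and 378 to 1135 lower.

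Named probe sets lower without overlap numbered 2731 of 13292 without a filter, against 1648 of 9203 above 30. With a mean above 100 they numbered 777. Those higher without overlap numbered 1903 without a filter, 1498 above 30 and 1060 above 100. Filters change how many probe sets are compared, here and in the counts below. With 1 array left out, 2648 to 3300 were higher and 2950 to 3579 lower, since fewer values then have to be separate. At least 1 log2 unit apart without overlap were 27 higher and 67 lower with pseudocount 1, and 2 and 5 with pseudocount 64. With a mean above 100 they were 6 and 11, without a filter 58 were lower, and with 1 array left out they were 20 to 58 and 21 to 95.

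Of 481 alternative values of the genes named by p or size, 0 changed sign. These genes were chosen without overlap, so leaving out an array, another pseudocount, another filter or another fit could not change it. Only quantile normalization could. Among all 143 named genes, 19 of 1674 values changed sign, in 14 genes whose ages overlap. AMH was at -0.025 with quantile normalization. With 1 array left out, the difference ranged from -0.16 to 0.18 for AMH, -0.14 to 0.18 for INSL3, -0.090 to 0.96 for STAR, -0.16 to 0.63 for UCHL1, -0.048 to 0.80 for STAG3, -0.017 to 0.33 for ODF2, -0.16 to 0.37 for BOLA-DRA, -0.10 to 0.51 for MYOZ1, -0.95 to 0.12 for HBB, -0.045 to 0.83 for SFRP1, -0.027 to 0.64 for RORA, -0.76 to 0.18 for LHCGR, -1.91 to 0.086 for SOD3 and -0.31 to 0.012 for RPL19. Of 208 alternative medians of the 26 lists, 30 had the other sign. With quantile normalization these included matrix (0.01), class II (0.03), cell cycle (-0.01) and oxidative phosphorylation genes (-0.01). The causes were not tested.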

Other observations

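Of 1700 genes with at least 2 named probe sets above the filter, 54 had all of them higher at 8 weeks without overlap (3.18%) and 69 had all of them lower (4.06%). Beside the genes of the report, the following were picked with their values in view. ACHE, the enzyme that splits acetylcholine, was at 151.9 and 232.5 at 4 weeks and 83.2 and 110.2 at 8 weeks with its brighter probe set (-0.87), and at 124.3 and 161.4 and then 83.8 and 57.1 with the other (-0.89). Both probe sets had the 8wk arrays under the 4wk arrays. LAT, an adaptor of T cell receptor signalling, was at 77.5 and 64.5 and then 35.3 and 58.8 (-0.49). Its dimmer probe set, at 64.7 and 79.3 and then 7 and 24.4, passed the filter only through the 4wk arrays. GDAP1L1 was lower with both of its probe sets (-0.78 and -0.57), as was PRR3 (-0.89 and -0.45).

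In the other direction, BLOC1S6, a subunit of a complex of lysosome-related organelles, was at 354.6 and 153.8 and then 454.6 and 387.7 (0.80), and its second probe set gave 0.88. Its values in 4wk replicate 2 were less than those of all other arrays of this step. TSPY, a testis-specific protein gene with many copies, was at 63.9 and 75 and then 124.7 and 94.7 (0.55), and its dimmer probe set gave 0.48. Copies of this gene cannot be told apart on the array.

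Over all 14578 probe sets tested, 16.3% were higher at 8 weeks without overlap and 18.4% lower. Of the 5375 probe sets without a gene name above the filter, 882 were higher and 1030 lower. A pair of them, picked with their values in view, had smaller p-values than any named probe set. The first was at 297.7 and 425.6 and then 58.4 and 108.8 (-1.95 ± 0.26, adjusted p = 0.3 in limma). The other was at 321.4 and 414 and then 1809.9 and 993 (1.83 ± 0.25, adjusted p = 0.3 in limma). Which transcripts they read is not named in the tables used here.

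Over all 14578 probe sets tested, 3 had replicates more than 2 log2 units apart in the same direction at both ages and 0 in opposite directions. All 3 read class II genes. Beside the BOLA-DQA2 probe set given in the report, these were its second one, at 54.6 and 283.3 and then 11.6 and 238.2, and a BOLA-DQB1 probe set at 2.8 and 100.8 and then 9.5 and 279.9. Another BOLA-DQB1 probe set read 1450.2 and 151 and then 1012.2 and 1094.9, so probe sets of 1 gene did not rank the arrays alike.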
